A study of Homo sapiens with 15 samples.

Results

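The genes described here are 10 genes of the ATF4 stress response: ATF4, DDIT3, ATF3, TRIB3, ASNS, CHAC1, SLC7A11, PSAT1, PHGDH and HSPA5. They were chosen by symbol from general knowledge of the pathway, with earlier results of these data known. All 10 were found among the 16604 genes of the deposited expression table. Their values were read in 15 RNA samples of 5 human ovarian cancer lines, 3 biological replicates per line. The unit was log2 RPKM, reads per kilobase of transcript, scaled to library size, as a base-2 logarithm, so that 1 unit is a doubling and levels of different genes can be compared per length.

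OVCAR4 is an established human cell line used as a model of high-grade serous carcinoma of the ovary, and its unselected form is labelled Ovcar4Parental. Ov4Cis was made by growing OVCAR4 in rising cisplatin and Ov4Carbo by growing it in rising carboplatin. Both drugs crosslink DNA, and exposure went on until the IC50, a measure of the dose that inhibits the cells, had risen between 2 and 10 fold. Ov4Carbo4 and Ov4Carbo7 were each grown from a single Ov4Carbo cell, so each stands for 1 clone, and the labels call all 4 derived lines resistant to their platinum drug. All lines were grown in DMEM with serum, and the labels name no drug in the cultures from which RNA was taken.

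ATF4 is a bZIP transcription factor whose protein is made when translation initiation factor eIF2 is phosphorylated by one of 4 kinases that sense amino acid shortage, haem shortage, viral RNA or unfolded protein in the endoplasmic reticulum. This integrated stress response slows most protein synthesis while ATF4 turns on genes for amino acid synthesis and import, for charging of tRNA and, under lasting stress, for cell death. Because ATF4 is controlled largely at translation, its mRNA level is only a partial measure of its activity. HSPA5 (BiP, the main chaperone of the endoplasmic reticulum) is chiefly a target of the separate unfolded protein sensors ATF6 and IRE1, and ATF3 is also an immediate early gene that responds to many signals.

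The C/EBP-ATF response element is the composite site through which ATF4 and its partners bind, and the endoplasmic reticulum stress element is the site bound by ATF6 with NF-Y. Both were looked for on both strands, as TGATGNAA and as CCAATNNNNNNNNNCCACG, in the RefSeq promoter windows of build GRCh38.p14, which run from 250 bases before to 50 bases after each annotated start. Windows were held for 9 of the 10 genes, SLC7A11 being the one without. For the 9 genes only matches within the 250 bases before a start were kept, so a match reaching past the start would be missed. There the first element was found in ATF3, ASNS and CHAC1, and the second in HSPA5 alone. Whole windows were searched for the count over all genes. The first was in 1270 of all 35116 windows (3.62%), or 1217 of 27305 genes. The second was in 27 windows (0.0769%), or 25 genes. These shares cover a longer stretch, so they are no like-for-like background for the 9 genes. The stretches around the matches are shown because these 4 genes are the ones with a match before the start. Between replicates, as described below, ASNS and CHAC1 moved closely with ATF4 and ATF3 did not. DDIT3, TRIB3, PSAT1 and PHGDH moved with ATF4 while having no match in the 250 bases before the start. The capitals mark the match, which in CHAC1 lies on the opposite strand and is printed as the gene's own strand reads. The ATF3 stretch is chr1:212565170-212565269 on the plus strand, with the match 191 to 184 bases before the start. The ASNS stretch is chr7:97872458-97872487 on the minus strand (match 68 to 61 bases before), the CHAC1 stretch is chr15:40953251-40953280 on the plus strand (209 to 202 bases before), and the HSPA5 stretch is chr9:125241351-125241450 on the minus strand (66 to 48 bases before). A match of letters is a description and does not show that a factor was bound.
ATF3: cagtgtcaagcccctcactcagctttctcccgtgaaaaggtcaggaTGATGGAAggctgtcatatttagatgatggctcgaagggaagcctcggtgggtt
ASNS: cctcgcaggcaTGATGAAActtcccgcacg
CHAC1: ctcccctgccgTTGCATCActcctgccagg
HSPA5: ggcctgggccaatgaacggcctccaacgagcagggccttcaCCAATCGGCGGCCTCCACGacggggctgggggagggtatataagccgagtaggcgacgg

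The median log2 RPKM of a sample was 2.77 throughout and between 13643 and 13712 genes lay above 0, so differences in total RNA content cannot be seen in these values. Read numbers are unknown, so precision rests on how far replicates lie apart. Sample titles carried numbers in 2 series, which the labels do not call a batch. The first held every sample of the 2 clones and Ov4Carbo replicate 1 (7 samples), the second the other 8. In comparisons of either clone with the parental line or with Ov4Cis, the series and the lines cannot be told apart. Ov4Cis against parental, and Ov4Carbo7 against Ov4Carbo4, each lay within 1 series. The serous markers PAX8 (line means of 5.85 to 6.74 log2 RPKM) and SOX17 (6.65 to 7.76) were present in every line, but WT1 was low (-5.07 to -1.52). MUC16 was at -1.73 in Ov4Cis and -0.21 in Ov4Carbo7, and MSLN at -2.29 in Ov4Cis. The epithelial genes EPCAM, KRT7 and CDH1 were lowest in Ov4Cis, at 1.17, -0.57 and -3.52 log2 RPKM. Of 10 markers of leukocytes, endothelium and fibroblasts, 5 were not in the table, and 4 of the rest stayed at or below -0.18 in line means. The endothelial gene CDH5 reached 2.15 to 5.13, and its part in the results below was not tested.

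SLC7A11 separated the lines more clearly than any other member. It encodes xCT, the transporter that imports cystine for glutathione synthesis, on chromosome 4 (ENSG00000151012). Its 3 replicates lay at 4.44, 4.23 and 3.35 log2 RPKM in the parental line, at 5.20, 4.60 and 4.89 in Ov4Cis, and at 4.85, 4.98 and 4.78 in Ov4Carbo. They lay at 2.09, 2.55 and 1.68 in Ov4Carbo4 and at 6.30, 6.33 and 6.49 in Ov4Carbo7. Every Ov4Carbo7 sample was above all samples of the other lines and every Ov4Carbo4 sample below all of them, while Ov4Cis and Ov4Carbo overlapped. As RPKM of the line means, the order was 82.9 in Ov4Carbo7, 29.8 in Ov4Cis, 29.2 in Ov4Carbo, 16.1 in the parental line and 4.31 in Ov4Carbo4.

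Differences between lines were tested with limma across all genes. A gene is named called where its Benjamini-Hochberg adjusted p was under 0.05 and its log2 difference at least 1 in size. The 2 clones of 1 parent line, Ov4Carbo, moved away from it in opposite directions. SLC7A11 fell by 2.76 on the log2 scale in Ov4Carbo4 (SE 0.27, limma adjusted p = 1.27e-05) and rose by 1.51 in Ov4Carbo7 (SE 0.27, adjusted p = 0.00107). Between the clones the difference was 4.27 (adjusted p = 2.05e-07), a 19.2-fold higher level in Ov4Carbo7. Against the parental line it fell by 1.90 in Ov4Carbo4 and rose by 2.37 in Ov4Carbo7, both called. It was higher by 0.89 in Ov4Cis (adjusted p = 0.021) and by 0.86 in Ov4Carbo (adjusted p = 0.028), below the size needed for a call. Those 2 smaller differences missed an adjusted p of 0.05 when parental replicate 3 was left out (0.081 and 0.11) and when only the groups compared were fitted (0.074 and 0.11). The first also missed it without Ov4Cis replicate 1 (0.082) or 3 (0.053), and the second without Ov4Carbo replicate 2 (0.077). The 4 comparisons with the parental line share its samples. Against Ov4Cis, SLC7A11 was 2.79 lower in Ov4Carbo4 and 1.47 higher in Ov4Carbo7 on the log2 scale, in comparisons where 16.8% and 14.7% of all genes were called. Ordered by level, each neighbouring pair of lines differed for SLC7A11 except Ov4Cis and Ov4Carbo (limma adjusted p = 0.94).

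SLC7A11 is also a target of NRF2, the factor that answers oxidative stress, and 8 other NRF2 targets were read beside it. In Ov4Carbo7 against parental, 5 of the 8 were called higher and 0 lower, where 17% of all genes were called and 9.26% called higher: HMOX1 (by 1.22), NQO1 (1.66), OSGIN1 (2.40), SRXN1 (1.30) and TXNRD1 (1.30). In Ov4Carbo4 against parental, 0 of the 8 were called, where 15.1% of all genes were, so with 8 genes this count is near the background. OSGIN1 had a parental line mean of 1.07 log2 RPKM, an Ov4Carbo4 mean of 2.05 and an Ov4Carbo7 mean of 3.47. The part of NRF2 in the SLC7A11 levels was not tested. SLC3A2, the heavy chain that pairs with xCT, was higher in Ov4Carbo7 than in the parental line by 0.93 and in Ov4Carbo by 0.46, both past an adjusted p of 0.05 and neither large enough for a call. In Ov4Carbo4, where SLC7A11 fell, the SLC3A2 mean lay 0.18 above the parental one.

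**Figure D1:**
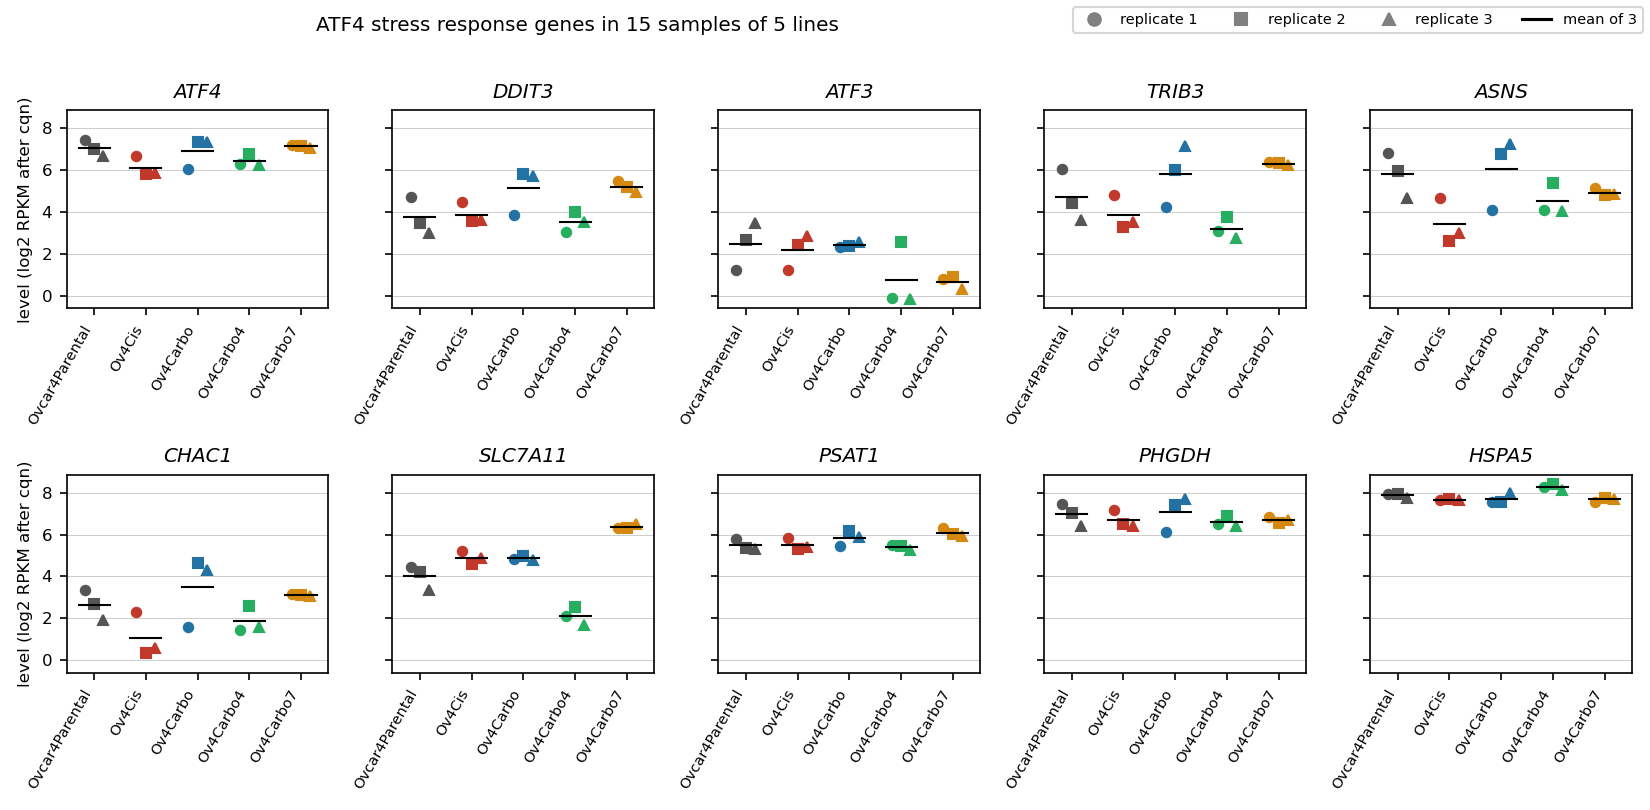
Level of each of the 10 genes in every sample, in log2 RPKM on the vertical axis, by line on the horizontal axis; points are the 3 replicates of a line and bars the line mean. SLC7A11 is highest in Ov4Carbo7 and lowest in Ov4Carbo4 with no overlap, while replicates of ASNS, CHAC1 and TRIB3 spread widely within most lines.

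ATF4 itself, on chromosome 22 (ENSG00000128272), was among the more strongly expressed of the 10 genes and differed little between lines. Its replicates lay at 7.43, 7.02 and 6.70 log2 RPKM in the parental line, at 6.67, 5.80 and 5.86 in Ov4Cis and at 6.08, 7.34 and 7.34 in Ov4Carbo. They lay at 6.30, 6.80 and 6.25 in Ov4Carbo4 and at 7.23, 7.16 and 7.05 in Ov4Carbo7. All Ov4Cis samples were below all parental samples, and the 3 Ov4Carbo7 samples were close together inside the parental range. ATF4 fell by 0.94 in Ov4Cis against parental (SE 0.34, limma adjusted p = 0.044), less than a call requires. The difference missed the threshold without parental replicate 1 (-0.75, adjusted p = 0.15) or 2 (0.088), without Ov4Cis replicate 2 (0.14) or 3 (0.14), with a replicate block (0.069) and when only these groups were fitted (0.052). Ov4Carbo7 against Ov4Cis gave the only call for ATF4 among the pairs of lines, at 1.04 higher (adjusted p = 0.027). That call was lost without Ov4Cis replicate 2 or 3 or any 1 Ov4Carbo7 replicate (adjusted p of 0.053 to 0.10), and a title series term gave 2.30.

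DDIT3 encodes CHOP, the bZIP factor tied to cell death under lasting stress, and lies on chromosome 12 (ENSG00000175197). Its replicates were at 4.73, 3.50 and 2.998 log2 RPKM in the parental line, 4.46, 3.55 and 3.61 in Ov4Cis, 3.85, 5.80 and 5.73 in Ov4Carbo, 3.06, 3.99 and 3.53 in Ov4Carbo4, and 5.48, 5.19 and 4.94 in Ov4Carbo7. All Ov4Carbo7 samples and Ov4Carbo replicates 2 and 3 stood above every other sample, and Ov4Carbo replicate 1 did not. DDIT3 rose by 1.46 in Ov4Carbo7 against parental (SE 0.53, limma adjusted p = 0.042), was 1.67 higher in Ov4Carbo7 than in Ov4Carbo4 (adjusted p = 0.019) and 1.60 lower in Ov4Carbo4 than in Ov4Carbo (adjusted p = 0.029). Among the 4 derived lines, the Ov4Carbo mean was 1.39 above parental without passing the threshold (adjusted p = 0.062). The call in Ov4Carbo7 against parental was lost without parental replicate 2 (adjusted p = 0.11), parental replicate 3 (0.16) or any 1 Ov4Carbo7 replicate (0.063 to 0.12). It was also lost without Ov4Cis replicate 2 or 3 or Ov4Carbo4 replicate 3, which enter only through the shared spread, and with a replicate block (0.065), and a title series term gave 3.38. The call between the clones was lost without Ov4Carbo4 replicate 1 (0.071) or Ov4Carbo7 replicate 1 (0.062). The call in Ov4Carbo4 against Ov4Carbo was lost without Ov4Carbo replicate 2 or 3 or Ov4Carbo4 replicate 1 or 3 (adjusted p of 0.068 to 0.11), with only these groups fitted (0.079) and with a title series term (-0.32, adjusted p = 0.72).

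TRIB3, on chromosome 20 (ENSG00000101255), encodes a pseudokinase induced by ATF4 and CHOP that feeds back on them. Its replicates were at 6.04, 4.44 and 3.64 log2 RPKM in the parental line, 4.81, 3.27 and 3.54 in Ov4Cis, 4.25, 6.03 and 7.16 in Ov4Carbo, 3.07, 3.77 and 2.77 in Ov4Carbo4, and 6.37, 6.34 and 6.25 in Ov4Carbo7. The Ov4Carbo7 replicates were tight and high and those of Ov4Carbo4 low. Parental replicates ranged from 3.64 to 6.04. Those of Ov4Carbo ranged from 4.25 to 7.16, the highest value of the 15 samples. TRIB3 was 3.12 higher in Ov4Carbo7 than in Ov4Carbo4 (SE 0.71, limma adjusted p = 0.0027), 2.61 lower in Ov4Carbo4 than in Ov4Carbo (adjusted p = 0.011) and 2.45 higher in Ov4Carbo7 than in Ov4Cis (adjusted p = 0.016). No derived line differed from the parental line at the threshold in TRIB3. Ov4Carbo7 came nearest, at 1.61 higher (limma adjusted p = 0.085), with all its replicates above the parental ones. Ov4Cis was 1.94 lower than Ov4Carbo (limma adjusted p = 0.0504). That difference was called under some alternatives, among them a variance trend (0.032) and quantile normalization (0.0497). A term for the title series ended the call in Ov4Carbo4 against Ov4Carbo (-1.05, adjusted p = 0.37), and leaving out Ov4Cis replicate 2 or 3 ended that in Ov4Carbo7 against Ov4Cis (0.061 and 0.054), where the series term gave 4.80.

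ATF3, on chromosome 1 (ENSG00000162772), followed another pattern. Its replicates were at 1.23, 2.64 and 3.50 log2 RPKM in the parental line, 1.25, 2.42 and 2.87 in Ov4Cis, 2.35, 2.38 and 2.59 in Ov4Carbo, -0.12, 2.57 and -0.17 in Ov4Carbo4, and 0.80, 0.88 and 0.31 in Ov4Carbo7. Ov4Carbo was even, Ov4Carbo4 held 1 sample far above the other 2, and all Ov4Carbo7 samples lay below all parental samples. No pair of lines differed at the threshold, Ov4Carbo7 against parental coming nearest at -1.79 (SE 0.71, limma adjusted p = 0.058). That difference was called lower with a variance trend (adjusted p = 0.040), the filter on mean level (0.045), log2(RPKM + 1) (-1.37, 0.039), only these groups fitted (0.040), a replicate block (0.046) and without parental replicate 1 (0.020), and its adjusted p was 0.21 without parental replicate 3. The F-test over the 5 lines gave an adjusted p of 0.059 for ATF3 in limma.

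Of the 4 enzymes, ASNS and CHAC1 had their lowest line means in Ov4Cis, and PSAT1 and PHGDH in Ov4Carbo4. ASNS, asparagine synthetase, lies on chromosome 7 (ENSG00000070669) and is a classic amino acid response gene. Its replicates were at 6.83, 5.95 and 4.68 log2 RPKM in the parental line, 4.65, 2.60 and 3.01 in Ov4Cis, 4.08, 6.80 and 7.25 in Ov4Carbo, 4.12, 5.39 and 4.04 in Ov4Carbo4, and 5.13, 4.81 and 4.86 in Ov4Carbo7. All Ov4Cis samples were below all parental samples, by a small margin at the nearest pair. ASNS fell by 2.40 in Ov4Cis against parental (SE 0.80, limma adjusted p = 0.033) and was 2.62 lower in Ov4Cis than in Ov4Carbo (adjusted p = 0.024). Each call was lost when any of several single samples was left out. The first was lost without parental replicate 1 (-1.89, adjusted p = 0.12) or 2, without Ov4Cis replicate 2 or 3 and with a replicate block (adjusted p = 0.055). The second was lost without Ov4Cis replicate 2 or 3 or Ov4Carbo replicate 2 or 3 (adjusted p of 0.079 to 0.096), and when only these groups were fitted (adjusted p = 0.11).

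CHAC1, on chromosome 15 (ENSG00000128965), encodes an enzyme that breaks down glutathione. Its replicates were at 3.36, 2.66 and 1.92 log2 RPKM in the parental line, 2.29, 0.33 and 0.57 in Ov4Cis, 1.58, 4.62 and 4.29 in Ov4Carbo, 1.45, 2.58 and 1.58 in Ov4Carbo4, and 3.16, 3.11 and 3.04 in Ov4Carbo7. The lowest samples were Ov4Cis replicates 2 and 3 and the highest Ov4Carbo replicates 2 and 3, with Ov4Carbo replicate 1 among the low ones. CHAC1 was 2.43 lower in Ov4Cis than in Ov4Carbo (SE 0.73, limma adjusted p = 0.022) and 2.04 higher in Ov4Carbo7 than in Ov4Cis (adjusted p = 0.041). The first of these was lost without Ov4Cis replicate 2 or 3 or Ov4Carbo replicate 2 or 3 (adjusted p of 0.078 to 0.088) and when only these groups were fitted (0.12). The other was lost without Ov4Cis replicate 2 or 3 or any 1 Ov4Carbo7 replicate (0.084 to 0.14) and with a replicate block (0.064). It was also lost without parental replicate 2 or Ov4Carbo4 replicate 1 or 3, and a title series term gave 4.92.

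PHGDH and PSAT1 catalyse the opening steps of serine synthesis. PHGDH, on chromosome 1 (ENSG00000092621), had line means from 6.60 log2 RPKM in Ov4Carbo4 to 7.08 in Ov4Carbo and differed between no pair of lines (limma F-test adjusted p = 0.69). PSAT1, on chromosome 9 (ENSG00000135069), had means of 5.49 log2 RPKM (parental), 5.52 (Ov4Cis), 5.84 (Ov4Carbo), 5.41 (Ov4Carbo4) and 6.07 (Ov4Carbo7). All 3 Ov4Carbo7 samples were above all 3 parental samples. PSAT1 rose by 0.58 in Ov4Carbo7 against parental (limma adjusted p = 0.038) and was 0.66 higher there than in Ov4Carbo4 (adjusted p = 0.017), both under the size of a call. The difference from the parental line missed the threshold without parental replicate 2 (adjusted p = 0.11), parental replicate 3 (0.13), Ov4Carbo7 replicate 1 (0.13) or Ov4Carbo7 replicate 2 (0.068), and that between the clones without Ov4Carbo4 replicate 3 (0.062) or Ov4Carbo7 replicate 1 (0.068). PSPH, the last enzyme of the pathway, passed in no derived line against parental (from -0.02 to 0.47).

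HSPA5, on chromosome 9 (ENSG00000044574), had the highest mean level of the 10 genes in each of the 5 lines. Its replicates were at 7.96, 7.95 and 7.76 log2 RPKM in the parental line, 7.67, 7.69 and 7.63 in Ov4Cis, 7.58, 7.54 and 7.98 in Ov4Carbo, 8.26, 8.43 and 8.14 in Ov4Carbo4, and 7.58, 7.76 and 7.69 in Ov4Carbo7. The Ov4Carbo4 samples were above all others, and this is the line in which SLC7A11 and TRIB3 were lowest. HSPA5 was 0.39 higher in Ov4Carbo4 than in the parental line (SE 0.12, limma adjusted p = 0.026), 0.58 higher than in Ov4Carbo (adjusted p = 0.0029), and 0.60 lower in Ov4Carbo7 than in Ov4Carbo4 (adjusted p = 0.0015). None reached the size of a call, and the first missed the threshold without parental replicate 3 (adjusted p = 0.095) and without Ov4Carbo4 replicate 1 (0.056) or 2 (0.10). Ov4Carbo4 against parental was also crossed with the title series, and a term for it gave an adjusted p of 0.075.

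The table held pseudogenes of 3 of the genes: ATF4P3 and ATF4P4 (means of 2.61 and 2.25 log2 RPKM), PSAT1P3 and PSAT1P4 (5.13 and 2.86) and HSPA5P1 (3.35). How the authors' counting shared reads between a gene and its copies is not given in the sources used here, so levels of ATF4, PSAT1 and HSPA5 are uncertain to that extent.

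**Figure D2:**
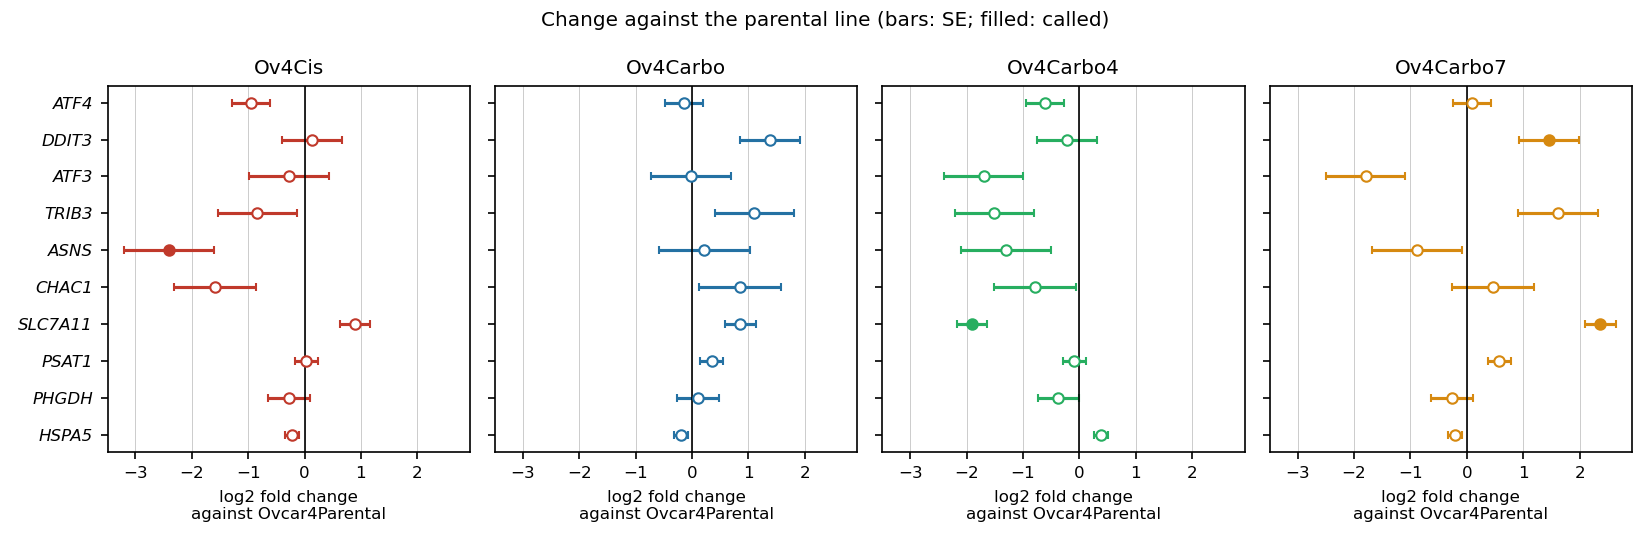
Difference of each derived line from the parental line for the 10 genes, as log2 fold change with its standard error on the axis of values; filled points are called (limma adjusted p under 0.05 and at least 1 in size). Called points are SLC7A11 in both clones in opposite directions, DDIT3 in Ov4Carbo7 and ASNS in Ov4Cis.

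Counted over the 10 genes, few calls separated derived lines from the parental line. In Ov4Cis 1 gene was called, and lower, where 15.9% of all genes were called and 7.41% called lower. In Ov4Carbo 0 of the 10 were called against 12.7% of all genes. SLC7A11 alone passed an adjusted p of 0.05 in Ov4Carbo, where 34% of all genes did. In Ov4Carbo4 the count was 1, lower, against 15.1% of all genes called and 7.7% lower. In Ov4Carbo7 it was 2, both higher, against 17% called and 9.26% higher. These counts are near the background and are no result about the list as a whole. Against parental, the median difference of the 10 genes was -0.27 for Ov4Cis, 0.29 for Ov4Carbo, -0.69 for Ov4Carbo4 and 0.28 for Ov4Carbo7, beside 0.04, 0.03, 0.07 and 0.02 over all genes.

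The remaining comparisons were among derived lines, and their counts too are read against the background. In Ov4Carbo4 against Ov4Carbo, 3 of the 10 genes were called (DDIT3, TRIB3 and SLC7A11, all lower, against 14.2% of all genes called and 6.64% lower), with a median of -1.56 beside 0.04 over all genes. In Ov4Carbo7 against Ov4Carbo, SLC7A11 was the only call (against 13.3% called and 7.72% higher), and the median was 0.03. In Ov4Carbo7 against Ov4Carbo4, 3 genes were called higher (DDIT3, TRIB3 and SLC7A11, against 20.9% called and 11.1% higher), and replicates of 7 of the 10 did not overlap, where 67.3% of all genes did not. In Ov4Cis against Ov4Carbo, 2 were called lower (ASNS and CHAC1, against 13.8% called and 5.9% lower). In Ov4Carbo7 against Ov4Cis 4 were called (ATF4, TRIB3, CHAC1 and SLC7A11), and in Ov4Carbo4 against Ov4Cis SLC7A11 alone, beside the background given above. In limma's F-test over the 5 lines, 6 of the 10 genes had an adjusted p under 0.05, where 76.9% of all genes had. These were DDIT3, TRIB3, CHAC1, SLC7A11, PSAT1 and HSPA5. ASNS (F-test adjusted p = 0.052) and ATF4 (0.054) did not pass, though each was called between single pairs of lines. Of the 40 steps between neighbouring lines in the order of levels, 4 passed an adjusted p of 0.05, namely 3 for SLC7A11 and the step from Ov4Carbo4 to the parental line for HSPA5.

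Much of the spread in these genes lay between replicates of the same line. The median distance from the highest to the lowest replicate was 1.27 log2 units for the 10 genes in the parental line, beside 0.258 over the 12037 genes of mean log2 RPKM at least 1. It was 0.890 beside 0.222 in Ov4Cis, 1.42 beside 0.455 in Ov4Carbo and 0.897 beside 0.182 in Ov4Carbo4. Only in Ov4Carbo7 was it like that of other genes, at 0.249 beside 0.248. Ranked by the SD within lines among those 12037 genes, ASNS and CHAC1 stood at the percentile 99.9, TRIB3 at 99.8, DDIT3 at 99.5 and ATF4 at 96.8. HSPA5 stood at 34.1.

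Certain samples were high or low for most of the list at once. Parental replicate 1 was the highest of its line for 9 of the 10 genes, ATF3 being the exception, and parental replicate 3 the lowest for 9. Ov4Cis replicate 1 was highest for 8 and Ov4Carbo4 replicate 2 highest for 9. Ov4Carbo replicate 1 was lowest for 8. Over all genes any 1 replicate was the highest of its line for 24.4% to 41.7% of genes. No such share was computed for the lowest replicate. Ov4Carbo replicate 1 differed from the mean of the other 2 by -1.26 for ATF4, -2.94 for ASNS, -2.88 for CHAC1, -2.35 for TRIB3 and -1.92 for DDIT3, but by -0.03 for SLC7A11. It is also the Ov4Carbo sample of the other title series, and whether that series plays a part cannot be told apart from this sample. Without it, 3 of the 10 genes instead of 0 were called higher in Ov4Carbo than in the parental line: DDIT3 (2.03, limma adjusted p = 0.0046), TRIB3 (1.89, adjusted p = 0.034) and CHAC1 (1.81, adjusted p = 0.023). With all samples, 12.7% of all genes were called in this comparison, and the share without this sample is not given here. The sample was singled out after its values were seen, so the count is no result about the list.

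**Figure D3:**
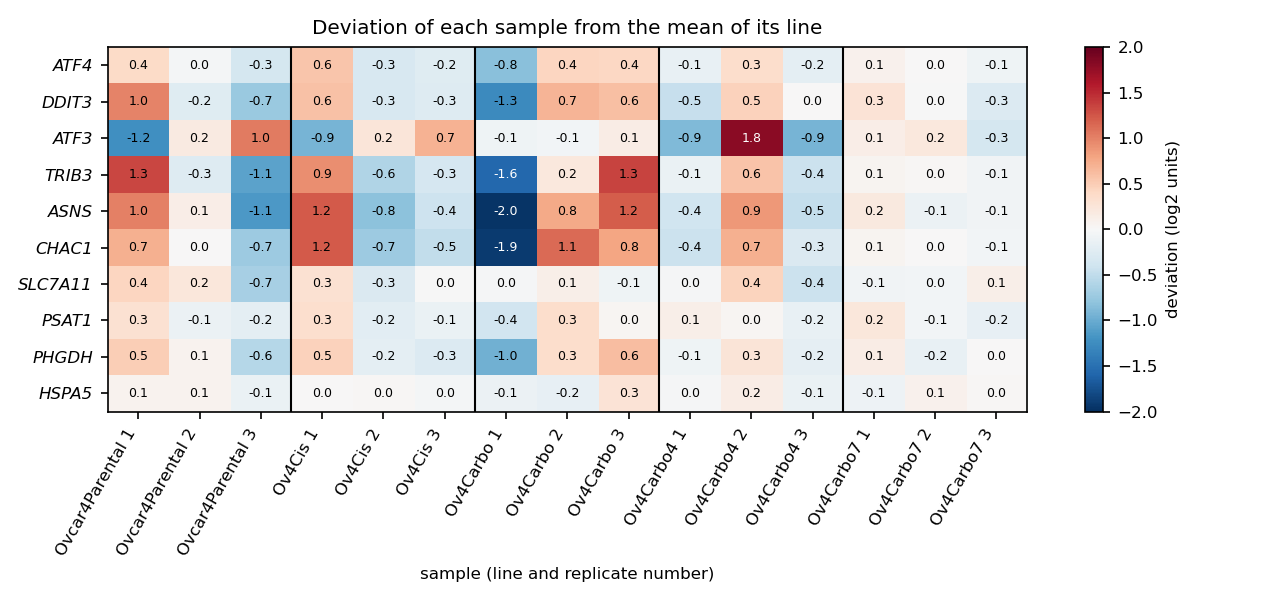
Deviation of each sample from the mean of its line, in log2 units as the colour and the printed number, with genes in rows and the 15 samples in columns. Most rows share their sign within a column, such as Ov4Carbo replicate 1, which is low for ATF4, DDIT3, TRIB3, ASNS and CHAC1, while the ATF3 row does not follow and the HSPA5 row varies little.

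To describe this, each gene's deviations from its line means were correlated with those of ATF4 over the 15 samples. The points share libraries and normalization, the 3 deviations of a line sum to 0, and the pattern was seen before it was measured, so the values are a description. Pearson's r was 0.99 for CHAC1, 0.98 for ASNS, 0.96 for PHGDH, 0.94 for DDIT3, 0.93 for TRIB3 and 0.86 for PSAT1. It was lower for SLC7A11 (0.56) and HSPA5 (0.47), and ATF3 did not follow (-0.12). Without the 3 Ov4Carbo samples, 7 of the 9 genes were at 0.8 or above, SLC7A11 among them at 0.81. PHGDH, which differed between no lines, was thus among the genes that tracked ATF4 most closely within lines.

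Other genes of the pathway were read from lists chosen from general knowledge, with earlier results of these data known. Within lines, 12 of 13 genes of tRNA charging (cytosolic aminoacyl-tRNA synthetases with the tRNA exporter XPOT) had r of at least 0.8 with ATF4, with a median of 0.90. Of 15 further genes of amino acid synthesis and one-carbon metabolism, 10 did (median 0.89), among them CTH, PCK2, MTHFD2 and PSPH. Of 15 other regulators and ATF4-linked genes 7 did (median 0.78), and of 10 amino acid transporters 2 did (median 0.65). In the remaining lists fewer did: 1 of 15 genes for eIF2, its kinases and phosphatases, 2 of 25 endoplasmic reticulum genes (XBP1 and ERN1), 0 of 8 NRF2 targets and 0 of 9 immediate early genes, with medians of 0.02, 0.08, 0.32 and -0.05. Without the Ov4Carbo samples the median of the NRF2 targets was 0.72, with 2 of 8 at 0.8 or above (HMOX1 at 0.89 and TXNRD1 at 0.87), and that of the transporters 0.51. Over the other 12027 genes the median was -0.03 and 5.16% reached 0.8.

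**Figure D4:**
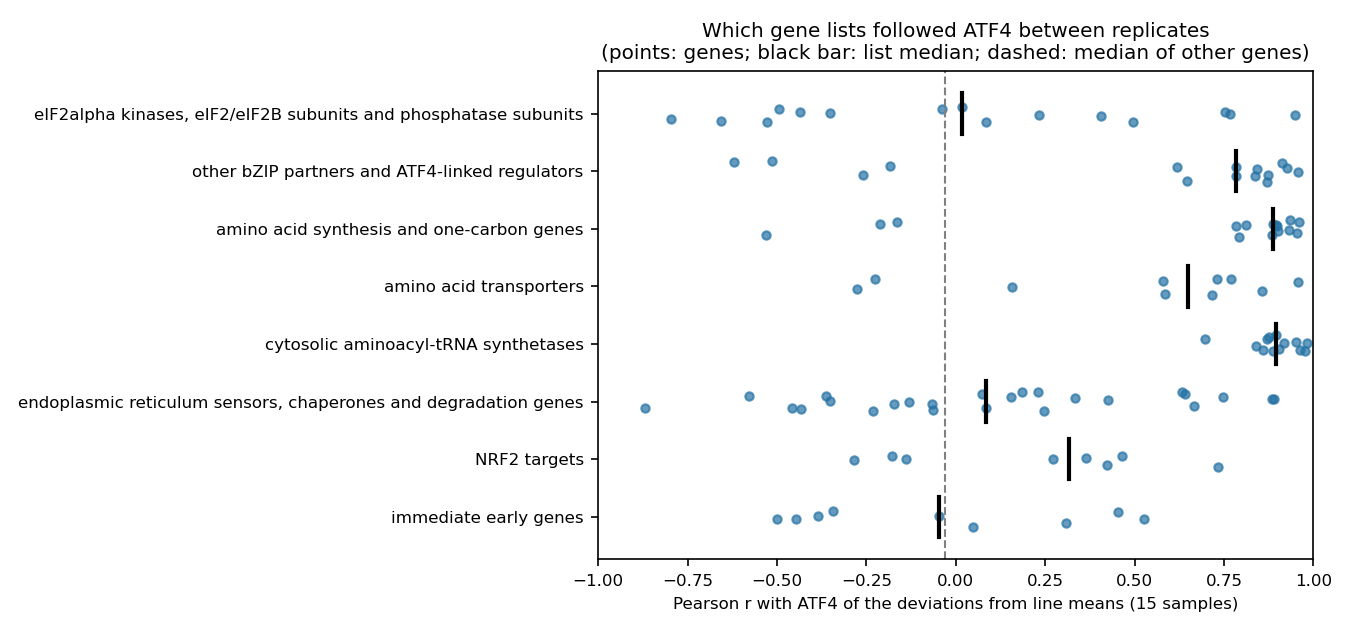
Pearson's r of each gene's deviations from its line means with those of ATF4 over 15 samples, on the value axis, by gene list; points are genes and bars list medians. Genes of tRNA charging and amino acid synthesis gather near the top (medians of 0.90 and 0.89), and endoplasmic reticulum and immediate early genes spread around 0.

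Between lines, calls in the same lists against the parental line differed from list to list. Over all genes, 12.7% to 17% were called in these 4 comparisons. Of the 15 genes for eIF2, its kinases and phosphatases, 0 were called in any derived line. EIF2AK3 (PERK, the kinase that senses unfolded protein) was 0.70 lower in Ov4Cis, 0.34 lower in Ov4Carbo, 0.37 lower in Ov4Carbo4 and 0.30 higher in Ov4Carbo7, each past a limma adjusted p of 0.05 and none as large as a call. Of the 13 genes of tRNA charging, 1 was called, WARS1 in Ov4Carbo4 (fell by 1.40). Of the 15 amino acid synthesis genes, 2 were called lower in Ov4Cis, 3 lower in Ov4Carbo4 and 1 higher in Ov4Carbo7. Over all genes, 7.41%, 7.7% and 9.26% were called in those directions. With 15 genes, such counts are no result about the list as a whole. ALDH1L2 (mitochondrial folate metabolism) was down by 2.56 in Ov4Carbo4 and BCAT1 (branched-chain amino acid breakdown) up by 1.13 in Ov4Carbo7. Of the 10 transporters, 3 were called lower in Ov4Cis, against 15.9% of all genes called and 7.41% lower. Among transporters of mean log2 RPKM at least 1, SLC7A1 (arginine and lysine import) fell by the most, by 1.65. SLC6A9, the glycine transporter, has a lower mean and is named after its values were seen. It fell by 5.69 in Ov4Cis, from a parental mean of 2.01 log2 RPKM to -3.68. SLC7A5, the leucine transporter that also pairs with SLC3A2, rose by 1.36 in Ov4Carbo7.

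Of 15 other regulators, 5 were called lower and 0 higher in Ov4Carbo4 against parental, where 7.7% of all genes were called lower. In Ov4Carbo7, 3 were called higher and 2 lower, where 17% of all genes were called. TRIB2, a pseudokinase related to TRIB3 and named after its values were seen, fell by 4.48 in Ov4Carbo7 and by 3.44 in Ov4Carbo, from a parental mean of 1.95 log2 RPKM. Among regulators of mean log2 RPKM at least 1, the largest rise and the largest fall were both those of NUPR1, a small stress-induced chromatin protein, with means of 5.08 log2 RPKM (parental), 4.34 (Ov4Cis), 7.32 (Ov4Carbo), 1.78 (Ov4Carbo4) and 7.52 (Ov4Carbo7). NUPR1 fell by 3.30 in Ov4Carbo4 (limma adjusted p = 0.0017) and rose by 2.44 in Ov4Carbo7 (adjusted p = 0.0098). Between the clones, 7 of these 15 genes were called higher in Ov4Carbo7 and 1 lower, where 20.9% of all genes were called and 11.1% called higher. Of 25 endoplasmic reticulum genes, 0 were called in Ov4Carbo4 against parental, where 15.1% of all genes were called. HSPA5 was highest in this line but was itself not called there (0.39), so the count does not show whether the list moved with it. The list median was -0.21 in that comparison, beside 0.07 over all genes. The sensor gene ERN1 (IRE1) rose by 1.28 in Ov4Carbo7, and the co-chaperone gene DNAJC3 fell by 1.04 in Ov4Cis. DERL3, a degradation gene of lower mean named after its values were seen, fell by 1.90 in Ov4Carbo and by 1.54 in Ov4Carbo7.

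ATF3 was set beside 9 immediate early genes, which cells switch on within minutes of serum or stress. Deviations from line means gave a median r with ATF3 of 0.66 over the 9 genes, beside -0.01 over all genes, with DUSP1 at 0.81, JUN at 0.79, FOSB at 0.76 and FOS at 0.74 (15 samples, same shared sources as above). FOSB rose by 2.998 in Ov4Cis against parental and FOS fell by 2.15 in Ov4Carbo7, while ATF3 differed by -0.28 and -1.79 in those comparisons, without passing the threshold in either and with the alternatives given above for the latter.

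Likeness over all 15 samples, measured as Pearson's r of levels with the 6659 genes of mean log2 RPKM at least 1 and SD at least 0.3, describes which genes shared each pattern. The closest gene was ATF4P3 for ATF4 (0.98), RFNG for DDIT3 (0.94), GADD45B for ATF3 (0.85), GARS1 for TRIB3 (0.98) and MTHFD2 for ASNS (0.95). It was YARS1 for CHAC1 (0.96), PPP1R3B-DT for SLC7A11 (0.98), METTL5 for PSAT1 (0.94), MARS1 for PHGDH (0.92) and SMC5 for HSPA5 (0.95). GARS1, YARS1 and MARS1 are tRNA synthetase genes and MTHFD2 is a mitochondrial folate enzyme.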

How the data were processed

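RNA from 15 cultures was sequenced after polyA capture, per the labels' protocols. The authors' deposited table holds log2 RPKM, and its name gives cqn (conditional quantile normalization, a correction for length and GC effects) and a threshold whose rule is not given in the sources used here. BWA 0.7.15-r1140, HTSeq and build hg19 (GRCh37) come from the submitters' processing notes. Cqn makes sample distributions alike, so shifts in total RNA cannot be seen. Read depth is unknown. A check of the logarithm's base on the values gave, for base 2, 1.14 to 1.22 times the total that RPKM implies, and for base e 6.56 to 7.32 times.

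Symbols matched 16448 of 16604 Ensembl identifiers. A limma 3.58.1 model (R 4.3.3, lmFit and eBayes, two-sided) with 1 coefficient per line was fitted to all genes and 15 samples, with Benjamini-Hochberg adjustment over all genes in each comparison. No sample was left out of it. It was tested on simulated data. Tables and figures used Python 3.11.15, pandas 2.3.3, numpy 2.4.6 and matplotlib 3.10.9. Besides the 10 genes, the text names, per list, the called genes with the largest rise and fall against the parental line among genes of mean log2 RPKM at least 1, partner genes of members, and the gene most like each member. Other list genes named, and those given with their r, were chosen after their values were seen. The members and lists were chosen with earlier results of these data known. Alternatives were a variance trend, quantile normalization, median centring, log2(RPKM + 1), a filter at a mean log2 RPKM of 1, a replicate block, a title series term, fits of only the compared lines, an adjusted p under 0.01, and leaving out each sample.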

Additional observations from a re-analysis of the deposited data

Results flagged for a closer look

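Derived lines differed from each other directly, by limma's test of the difference (log2, first line minus second), in 14 cases. In Ov4Carbo4 against Ov4Carbo these were DDIT3 (-1.60), TRIB3 (-2.61) and SLC7A11 (-2.76), and in Ov4Carbo7 against Ov4Carbo SLC7A11 (1.51). In Ov4Carbo7 against Ov4Carbo4 these were DDIT3 (1.67), TRIB3 (3.12) and SLC7A11 (4.27). In Ov4Cis against Ov4Carbo these were ASNS (-2.62) and CHAC1 (-2.43), and in Ov4Carbo4 against Ov4Cis SLC7A11 (-2.79). In Ov4Carbo7 against Ov4Cis these were ATF4 (1.04), TRIB3 (2.45), CHAC1 (2.04) and SLC7A11 (1.47). Each had 3 samples a line and an adjusted p between 2.05e-07 and 0.041.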

How the results depend on the processing

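Of 18 calls in 10 comparisons, 0 changed direction in any of 24 settings, and 8 stayed called in all of them: SLC7A11 in 7 comparisons and TRIB3 between the clones. Counts of the 10 genes called moved as follows, with smaller moves not all listed. Shares of all genes called under each setting are not given here, so the counts are no result about the list. With a variance trend or the mean filter, the counts were 3 instead of 2 in Ov4Carbo7 against parental, with 2 higher and 1 lower. Under the same settings they were 3 instead of 2 in Ov4Cis against Ov4Carbo and 5 instead of 4 in Ov4Carbo7 against Ov4Cis. At an adjusted p under 0.01 they were 1 instead of 3 in Ov4Carbo4 against Ov4Carbo, 1 instead of 2 in Ov4Carbo7 against parental, 0 instead of 2 in Ov4Cis against Ov4Carbo, 0 instead of 1 in Ov4Cis against parental, 1 instead of 4 in Ov4Carbo7 against Ov4Cis, and 3 instead of 6 in the F-test. With a term for the title series, estimated from Ov4Carbo replicate 1 alone, they were 3 instead of 0 in Ov4Carbo, 6 instead of 2 in Ov4Carbo7 and 2 instead of 1 in Ov4Cis against parental, 5 instead of 2 in Ov4Cis against Ov4Carbo, 5 instead of 1 in Ov4Carbo4 and 8 instead of 4 in Ov4Carbo7 against Ov4Cis, and 1 instead of 3 in Ov4Carbo4 against Ov4Carbo. That term also turned ASNS and CHAC1 in Ov4Carbo4 against Ov4Carbo (0.43 and 0.29) and ASNS in Ov4Carbo7 against Ov4Carbo (0.85), none of them called. The F-test count was 9 instead of 6 with a variance trend, the mean filter or log2(RPKM + 1), and 8 with the title series term. In Ov4Carbo against parental the count was 1 instead of 0, DDIT3, with the mean filter, with log2(RPKM + 1) and with a variance trend. In Ov4Carbo7 against Ov4Carbo it was 2 instead of 1 with a variance trend or only the groups compared, and in Ov4Cis against Ov4Carbo 0 instead of 2 with only the groups compared. Leaving out 1 sample gave 0 to 3 calls in Ov4Cis (0 without Ov4Cis replicate 3, 3 without its replicate 1), 0 to 3 in Ov4Carbo (3 without its replicate 1), 1 to 2 in Ov4Carbo4 (2 without parental replicate 1 or its own replicate 2) and 1 to 4 in Ov4Carbo7 (4 without parental replicate 1), all against parental. It gave 2 to 5 in Ov4Carbo4 against Ov4Carbo (5 without Ov4Carbo replicate 1), 1 to 2 in Ov4Carbo7 against Ov4Carbo (2 without parental replicate 1, Ov4Carbo replicate 1 or Ov4Carbo4 replicate 2), 2 to 3 between the clones, 0 to 5 in Ov4Cis against Ov4Carbo (5 without Ov4Carbo replicate 1), 1 to 2 in Ov4Carbo4 (2 without its replicate 2) and 1 to 5 in Ov4Carbo7 against Ov4Cis (1 without Ov4Cis replicate 2 or 3), and 3 to 9 in the F-test (3 without Ov4Carbo7 replicate 1, 9 without Ov4Cis replicate 1). ATF4 in Ov4Carbo7 against parental turned to -0.079 without parental replicate 3, and PHGDH in Ov4Carbo7 against Ov4Cis to -0.087 and -0.13 without Ov4Cis replicate 2 or 3 and to -0.065 without Ov4Carbo7 replicate 1 (-0.13 to 0.24 over the samples left out). The causes were not tested.

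The replicate numbers did not clearly pair the samples. Deviations of same-numbered samples of different lines correlated at over 0.1 in 11 of 30 pairs (r from -0.39 to 0.44). Of 15 samples, 5 were closest to their own number. No level for unpaired samples was computed beside this, so a partial pairing remains possible. With a replicate block, the count in Ov4Cis against parental was 0 instead of 1, and 5 instead of 6 genes passed the F-test. Unknown depth limits what low values, such as those of ATF3, can show.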

Other observations

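Among the regulators read beside the 10 genes, the 2 clones stood apart in several secreted and nuclear stress factors, named here after their values were seen. CEBPD, a bZIP factor of the C/EBP family, had line means of 4.31 log2 RPKM in the parental line, 4.88 in Ov4Carbo, 1.95 in Ov4Carbo4 and 6.64 in Ov4Carbo7. GDF15, a secreted stress cytokine, had 6.20, 7.26, 4.88 and 8.05 in the same order, with an SD of 1.30 in Ov4Carbo4 and 0.27 in Ov4Carbo7. STC2, a secreted glycoprotein, had 5.50, 5.51, 3.04 and 6.38, and its Ov4Cis mean was 2.27. The 3 replicates of Ov4Carbo7 lay above the 3 of Ov4Carbo4 for each of these genes. They lay below them for TRIB2 and JDP2 of the same list. Replicates of the clones did not overlap, in either direction, for 67.3% of all genes, so such separation is common and is no result about these genes.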
